A study of Mus musculus with 12 samples.

Results

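The module described here holds 33 genes of the endoplasmic reticulum (ER) stress response and the integrated stress response. They were taken by name from the deposited gene tables, as the rows whose gene symbol equals a listed member, and are 33 of 23845 genes. All 33 were found and all 33 passed the filter on low counts, which left 15295 genes for testing. They comprise 15 ER chaperones and folding helpers, 4 genes of ER-associated degradation, 3 stress sensors, 4 transcription factors and 7 targets or feedback regulators of the integrated stress response.

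The ER folds secreted and membrane proteins, and its membrane carries sensors for unfolded protein. IRE1 (gene Ern1) splices the mRNA of the transcription factor XBP1, PERK (Eif2ak3) phosphorylates the translation initiation factor eIF2, and ATF6 is cut to release a transcription factor. The integrated stress response is the branch that runs through phosphorylated eIF2, which several kinases can produce, and through the factors ATF4 and CHOP (Ddit3). Splicing of Xbp1, phosphorylation of eIF2 and cleavage of ATF6 are not visible in mRNA levels summed per gene, so the values below describe transcript abundance and not the activity of a pathway.

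RNA was sequenced from microglia, the macrophages of the brain, isolated over Percoll density gradients. All mice were of strain C57BL6/J and 3 to 4 months old. WT mice were wild type, and CPEB1-KO mice lacked CPEB1, an RNA-binding protein that acts on poly(A) tails and translation. WT-LPS and CPEB1-KO-LPS mice were of the same genotypes and had received an injection of LPS (lipopolysaccharide, from the outer membrane of bacteria) 24 h before the cells were taken. Each of the 4 groups had 3 libraries, and each library came from 1 animal. The type of knockout allele, the LPS dose, the sex of the mice and any vehicle injection of the mice without LPS are not given here.

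Libraries held between 5.02 M and 13.5 M expected counts (M for mega). The targeted transcript did not separate the genotypes. Cpeb1 was at 20.0, 15.5 and 43.3 TPM in WT and at 17.6, 26.4 and 21.3 TPM in CPEB1-KO, at 40.2, 24.1 and 45.1 TPM in WT-LPS and at 34.6, 40.6 and 24.0 TPM in CPEB1-KO-LPS (log2 difference between knockout and wild type over both treatments -0.33 ± 0.22 (SE), adjusted p = 0.486). A gene-level value cannot show a deletion of part of a gene, so genotype below means the labelled genotype. Markers of microglia were high in every group, with a mean log2(TPM + 1) over 9 genes of 6.11 to 9.37. They were lower in most LPS libraries, and RNA of other cells was present, with a mean of 8.88 to 12.2 over 4 erythroid markers and of 7.01 to 8.96 over 12 neuron markers. The neuron mean lay above the microglia mean in WT-LPS replicates 1 and 3, CPEB1-KO replicates 2 and 3 and CPEB1-KO-LPS replicates 1 and 2. In CPEB1-KO-LPS replicate 2 these means were 8.74 and 6.11. The values below are thus those of whole preparations and not of microglia alone. Of the libraries, 3 were set apart by 1 marker list each, a choice made after seeing the data. WT-LPS replicate 1 had the highest neuron mean (8.96), and its microglia mean of 6.64 lay under the 8.63 and 8.03 of replicates 2 and 3. CPEB1-KO replicate 1 had a plasma cell mean of 2.49, against 1.51 and 1.35 in the other CPEB1-KO libraries. In CPEB1-KO-LPS replicate 3 haemoglobin held 1.503% of counts, against 0.146% and 0.242% in the other CPEB1-KO-LPS libraries. They were not the only libraries to differ within a group. WT replicate 1 had a neuron mean of 8.48, against 7.01 and 7.44 in the other WT libraries. CPEB1-KO-LPS replicates 1 and 2 had microglia means of 6.94 and 6.11, against 8.16 in replicate 3. Calls of members that change without the 3 libraries set apart are given with and without them.

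Promoters of some of these genes carry short elements bound by the factors of the module, and the stretches that hold them are shown so that members with the same element can be set beside their LPS responses. RefSeq promoter sequence (GRCm38.p6) was found for 29 of the 33 members. Atf6, Hyou1, Manf and Ppp1r15b had none. Both strands of the 250 bases before the start were searched for 4 elements. The ER stress response element (ERSE) was CCAAT, 9 bases of any kind and CCACG. ERSE-II was ATTGG, 1 base of any kind and CCACG, and thus ends in the same letters as ERSE. The third element was TGACGTGG, known as the unfolded protein response element, and the fourth was TGATGNAA, which is bound by pairs of C/EBP and ATF proteins such as ATF4. ERSE was matched in 8 of the 29 members (27.6%), against 0.113% of 32851 promoters. The members were listed as genes of these stress responses, so the shares of matches describe the list and are no evidence about these libraries. In the stretches below the match is in capitals with 8 bases on each side, read along the strand of the gene.
Hspa5, chr2:34772017-34772051, plus strand: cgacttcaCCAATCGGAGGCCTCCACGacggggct
Calr, chr8:84847067-84847101, minus strand: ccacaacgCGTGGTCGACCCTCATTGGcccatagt
Canx, chr11:50325792-50325826, minus strand: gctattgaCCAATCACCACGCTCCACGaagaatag
Pdia6, chr12:17266483-17266517, plus strand: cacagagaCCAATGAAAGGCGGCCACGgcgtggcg
Dnajc3, chr14:118937819-118937853, plus strand: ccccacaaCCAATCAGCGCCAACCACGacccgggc
Creld2, chr15:88819512-88819546, plus strand: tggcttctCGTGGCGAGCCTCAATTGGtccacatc
Syvn1, chr19:6046524-6046558, plus strand: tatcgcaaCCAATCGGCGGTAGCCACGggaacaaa
Hsp90b1, chr10:86705525-86705664, minus strand, 2 matches: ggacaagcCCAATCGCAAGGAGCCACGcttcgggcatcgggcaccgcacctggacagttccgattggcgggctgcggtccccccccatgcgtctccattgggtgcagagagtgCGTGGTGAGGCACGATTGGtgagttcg

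In Calr, Creld2 and the second match of Hsp90b1 the element lies on the opposite strand, so its letters read as their reverse complement. ERSE-II was matched in 1 member, Herpud1 (3.45% of members, against 0.0304% of promoters). The C/EBP-ATF element was matched in 4 members (13.8%, against 3.45% of promoters), which are Asns, Chac1, Nupr1 and Herpud1. TGACGTGG was in 0 of the 29 windows, against 0.563% of promoters. The stretch of Herpud1 holds both of its elements, the C/EBP-ATF element first and ERSE-II second. The C/EBP-ATF element of Herpud1, Chac1 and Nupr1 reads as its reverse complement.
Herpud1, chr8:94386309-94386395, plus strand: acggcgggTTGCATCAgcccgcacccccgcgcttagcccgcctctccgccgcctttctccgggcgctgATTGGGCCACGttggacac
Chac1, chr2:119351041-119351064, plus strand: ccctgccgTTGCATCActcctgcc
Asns, chr6:7693217-7693240, minus strand: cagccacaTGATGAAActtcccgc
Nupr1, chr7:126625565-126625588, minus strand: gggccagaTTGCATCAgacagggc

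With LPS some members rose and others fell, and the share that fell was near that of all genes. In WT-LPS against WT the 3 sensors, the transcription factor Atf4, the degradation gene Herpud1, the disulphide isomerase P4hb and the feedback genes Sesn2, Ppp1r15a and Ppp1r15b rose. The chaperones and folding helpers Calr, Pdia4, Pdia6, Sdf2l1 and Creld2 and the transcription factor Ddit3 fell. These were 15 of 33 members past a false discovery rate (FDR) of 0.05 in edgeR's quasi-likelihood test, adjusted over all 15295 genes, where 27.4% of all genes passed. The 9 that rose compare with 12.4% of all genes that rose, and the 6 that fell with 14.9% that fell. The median log2 difference was 0.20 over the members and -0.03 over all genes. In whole preparations, fewer cells of a type and less RNA per cell cannot be told apart.

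In CPEB1-KO-LPS against CPEB1-KO 2 of 33 members passed, against 6.22% of all genes. Both rose (4.1% of all genes rose), and 0 fell (2.12% of all genes fell). They were Atf4 and Nupr1, and a further 9 members had an unadjusted p under 0.05 (11 in all, 33.3% of members against 20.5% of genes). The call of Atf4 was lost in several alternatives, and that of Nupr1 in fits that left out 1 library, as given below. The median was 0.17 over the members and 0.00 over all genes. Averaged over both genotypes, LPS raised and lowered the 9 and 6 members named for wild type (15 of 33, where 29.4% of all genes passed, 14.6% higher and 14.8% lower). That average contains the wild-type libraries and adds no separate evidence for them.

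On the TPM scale, the authors' per-length level, the groups did not overlap for 14 members that were higher and 2 that were lower in WT-LPS (27.4% and 10.8% of all genes). In the knockout these were 10 and 6 members (16.2% and 15%), and over both genotypes 8 and 1 (9.49% and 3.63%). The scale bears on the balance of directions. With limma on log2(TPM + 1) the median gene of WT-LPS against WT lay at 0.28 instead of -0.03, and 11 members rose and 2 fell, which were Pdia4 and Creld2. For the mean of both genotypes that split was 11 and 3, with Trib3 (0.57, adjusted p = 0.046) and Nupr1 (0.39, adjusted p = 0.0422) added to those that rose. In the knockout it stayed at 2 and 0, with Ppp1r15a in the place of Atf4. Differences are given below on the count scale, and levels in TPM.

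**Figure D1:**
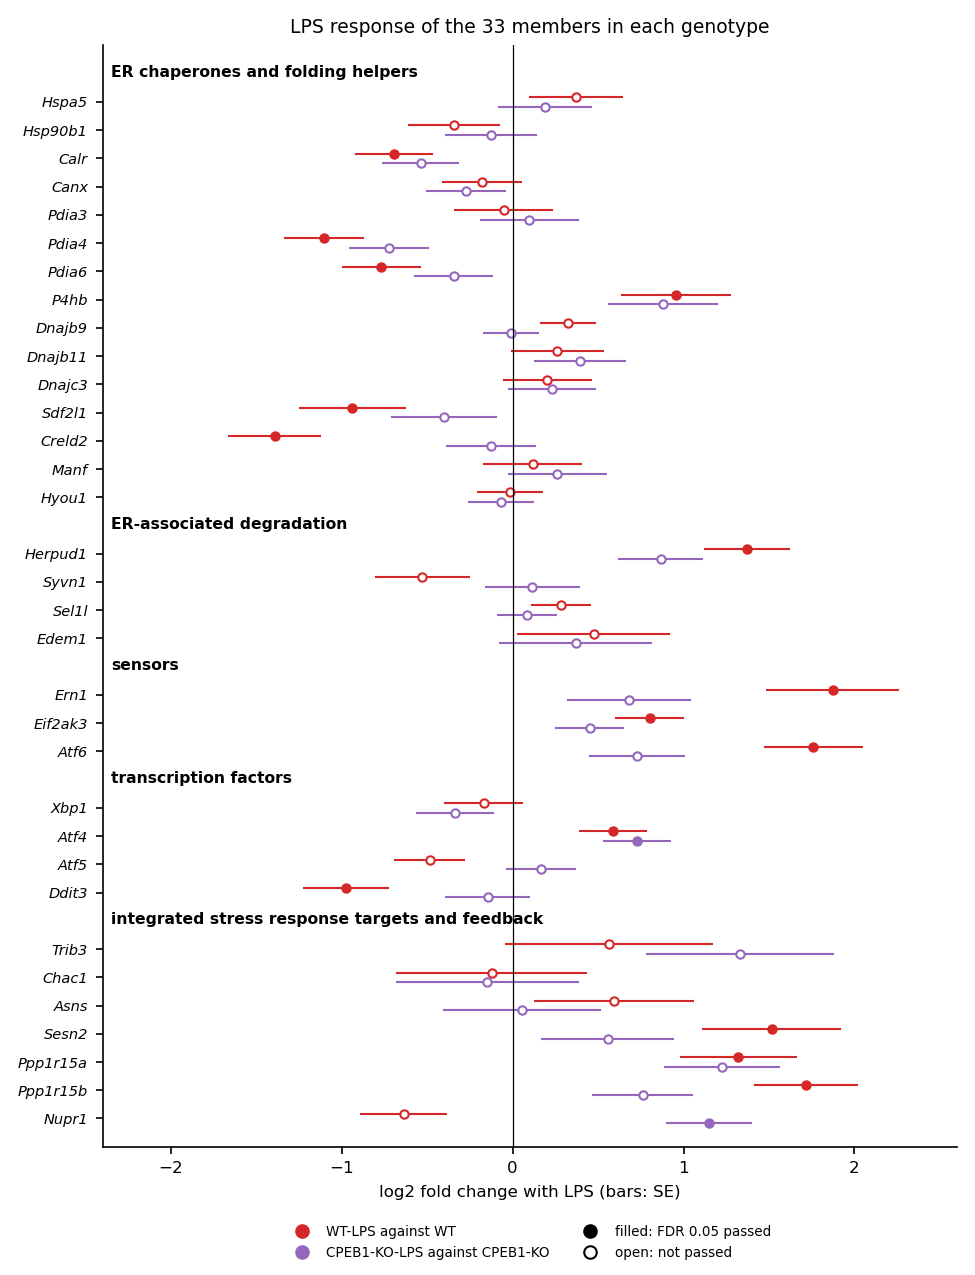
Log2 fold change with LPS (x axis) of each of the 33 members (rows, grouped by role) in wild type (red) and knockout (purple), with the SE as bars. Filled points passed FDR 0.05: 15 in wild type, with the 3 sensors to the right of 0 and 5 chaperones to the left, and 2 in the knockout, Atf4 and Nupr1.

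All 3 sensors rose in wild type, where 12.4% of all genes rose. Atf6, the sensor that becomes a transcription factor, was at 9.96, 5.36 and 6.91 TPM in WT and at 21.7, 34.9 and 37.1 TPM in WT-LPS. The CPEB1-KO libraries were at 10.8, 12.2 and 11.2 TPM, and the CPEB1-KO-LPS libraries were at 14.2, 16.4 and 23.0 TPM. Every LPS library was above every library without LPS of its genotype. On the log2 scale the difference was 1.76 ± 0.29 (SE) in wild type (adjusted p = 0.00126), 0.73 ± 0.28 in the knockout (adjusted p = 0.156) and 1.24 ± 0.20 over both (adjusted p = 0.000652).

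Ern1, which encodes the kinase and endonuclease IRE1, had the lowest level of the sensors. It was at 1.70, 1.03 and 0.90 TPM in WT and at 3.32, 6.31 and 7.32 TPM in WT-LPS, without overlap. Without LPS the knockout was at 3.03, 2.34 and 1.78 TPM, and the CPEB1-KO-LPS libraries were at 3.64, 5.24 and 2.52 TPM, and replicate 3 of the latter lay inside the range of CPEB1-KO. Its log2 difference was 1.87 ± 0.39 in wild type (adjusted p = 0.0041), 0.68 ± 0.36 in the knockout (adjusted p = 0.313) and 1.28 ± 0.26 over both (adjusted p = 0.00315). Its counts per library were low, from 13 to 176.

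Eif2ak3, which encodes the eIF2 kinase PERK, was at 11.2, 5.85 and 8.42 TPM in WT and at 15.1, 18.1 and 22.6 TPM in WT-LPS. Its CPEB1-KO values lay at 13.1, 12.3 and 11.1 TPM, and the CPEB1-KO-LPS libraries were at 17.0, 16.5 and 15.2 TPM, so neither pair of groups overlapped. It rose by 0.80 ± 0.20 in wild type (adjusted p = 0.0118) and by 0.63 ± 0.14 over both genotypes (adjusted p = 0.00561). The knockout alone was at 0.45 ± 0.20 (adjusted p = 0.223). In a fit of WT and WT-LPS only, the wild-type call was lost (adjusted p = 0.0574).

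Of the 4 transcription factors 1 rose and 1 fell in wild type (12.4% and 14.9% of all genes). Atf4, the main effector of the integrated stress response, was at 220.3, 127 and 169 TPM in WT and at 304, 262 and 337 TPM in WT-LPS. In CPEB1-KO its 3 libraries lay close together at 156, 157 and 156 TPM, and in CPEB1-KO-LPS they were at 232, 253 and 262 TPM. Neither pair overlapped. The log2 difference was 0.59 ± 0.20 in wild type (adjusted p = 0.0412), 0.73 ± 0.20 in the knockout (adjusted p = 0.0452) and 0.66 ± 0.14 over both (adjusted p = 0.00366). Atf4 was the 1 member that passed in both genotypes. The knockout value was 0.54 without the 3 libraries that stand apart (adjusted p = 0.217), and the knockout call was also lost in 9 of 12 fits without 1 library (adjusted p up to 0.187). The wild-type call was lost in 8 of those fits (adjusted p up to 0.103) and in a fit of WT and WT-LPS only (adjusted p = 0.148). The call over both genotypes held in every alternative run.

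Ddit3, which encodes CHOP, a factor known for promoting cell death under lasting stress, went the other way. It was at 82.6, 64.6 and 116 TPM in WT and at 76.2, 33.6 and 59.97 TPM in WT-LPS. WT-LPS replicate 1 lay inside the WT range, so the groups overlapped. Knockout mice without LPS were at 80.7, 84.4 and 83.8 TPM, and the CPEB1-KO-LPS libraries were at 73.9, 87.7 and 57.7 TPM. On the log2 scale the difference was -0.98 ± 0.25 in wild type (adjusted p = 0.0126), -0.15 ± 0.25 in the knockout (adjusted p = 0.793) and -0.56 ± 0.18 over both (adjusted p = 0.0289). The wild-type call was lost without WT replicate 3 (adjusted p = 0.0559), in a fit of WT and WT-LPS only (adjusted p = 0.0583) and with limma on TPM (adjusted p = 0.104). The call over both genotypes was lost in 8 of 12 fits without 1 library (adjusted p up to 0.0678) and with limma on TPM (-0.43, adjusted p = 0.139). The gene overlaps Mars1 and Mbd6 in the annotation, and whether reads were counted by strand is not known here, so its counts may include reads of these genes.

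Xbp1, whose mRNA is the target of IRE1 splicing, was at 88.3, 42.9 and 76.7 TPM in WT, at 72.4, 82.0 and 74.2 TPM in WT-LPS, at 101, 98.5 and 85.2 TPM in CPEB1-KO and at 66.6, 66.7 and 82.2 TPM in CPEB1-KO-LPS. The WT-LPS values lay within those of WT, and the 3 CPEB1-KO-LPS values were below those of CPEB1-KO. Neither difference passed (-0.17 ± 0.23, adjusted p = 0.604, and -0.34 ± 0.23, adjusted p = 0.447). Atf5, another bZIP factor translated under stress, stayed between 21.2 and 33.02 TPM in all 12 libraries (-0.49 ± 0.21 in wild type, adjusted p = 0.0938, and 0.17 ± 0.21 in the knockout, adjusted p = 0.705). It overlaps Il4i1b and Nup62.

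Among the 7 targets and feedback regulators 3 rose in wild type and 0 fell (12.4% and 14.9% of all genes). Ppp1r15b and Ppp1r15a encode the subunits (CReP and GADD34) that direct protein phosphatase 1 to eIF2 and so reverse its phosphorylation. Ppp1r15b was at 20.0, 10.6 and 10.8 TPM in WT and at 37.4, 62.4 and 69.6 TPM in WT-LPS, without overlap. In CPEB1-KO the level was at 18.0, 20.7 and 21.2 TPM and in CPEB1-KO-LPS at 25.9, 30.5 and 40.0 TPM, again without overlap. It rose by 1.71 ± 0.30 in wild type (adjusted p = 0.00186) and by 1.24 ± 0.21 over both genotypes (adjusted p = 0.000942), and the knockout alone was at 0.76 ± 0.30 (adjusted p = 0.159).

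Ppp1r15a was at 27.0, 37.0 and 30.6 TPM in WT and at 69.3, 99.0 and 142 TPM in WT-LPS. In CPEB1-KO it was at 40.0, 22.8 and 24.1 TPM and in CPEB1-KO-LPS at 56.1, 61.2 and 77.6 TPM. Both pairs of groups were apart. Its log2 difference was 1.32 ± 0.34 in wild type (adjusted p = 0.0131), 1.22 ± 0.34 in the knockout (adjusted p = 0.0502) and 1.27 ± 0.24 over both (adjusted p = 0.00185). The knockout value lay just outside the threshold and passed with DESeq2 (adjusted p = 0.0165) and without the 3 libraries that stand apart (1.23, adjusted p = 0.0284). Without WT-LPS replicate 3, the highest library, the wild-type value was 1.10 (adjusted p = 0.0583).

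Sesn2, a regulator of redox state and of mTORC1 signalling, was at 5.53, 2.49 and 0.86 TPM in WT and at 11.7, 9.36 and 11.7 TPM in WT-LPS. The CPEB1-KO libraries were at 4.64, 4.84 and 5.71 TPM, and the CPEB1-KO-LPS libraries were at 7.21, 8.29 and 6.30 TPM. The WT libraries differed among themselves more than those of the other groups, and neither pair overlapped. The log2 difference was 1.52 ± 0.41 in wild type (adjusted p = 0.0152), 0.56 ± 0.39 in the knockout (adjusted p = 0.461) and 1.04 ± 0.28 over both (adjusted p = 0.0143).

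Marker lists of other cells were also higher in WT-LPS, beside the members that rose. The mean log2(TPM + 1) of 6 monocyte markers was 2.64 to 3.26 in WT and 4.25 to 4.88 in WT-LPS, and the knockout groups overlapped, at 2.04 to 3.61 without LPS and 3.31 to 3.80 with it. For 8 endothelial and mural markers it was 1.83 to 2.35 in WT and 2.69 to 3.89 in WT-LPS, against 2.21 to 2.63 and 2.20 to 2.52 in the knockout. No marker of either list was at 0 in any library. Their part in the values of the members that rose was not tested.

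**Figure D2:**
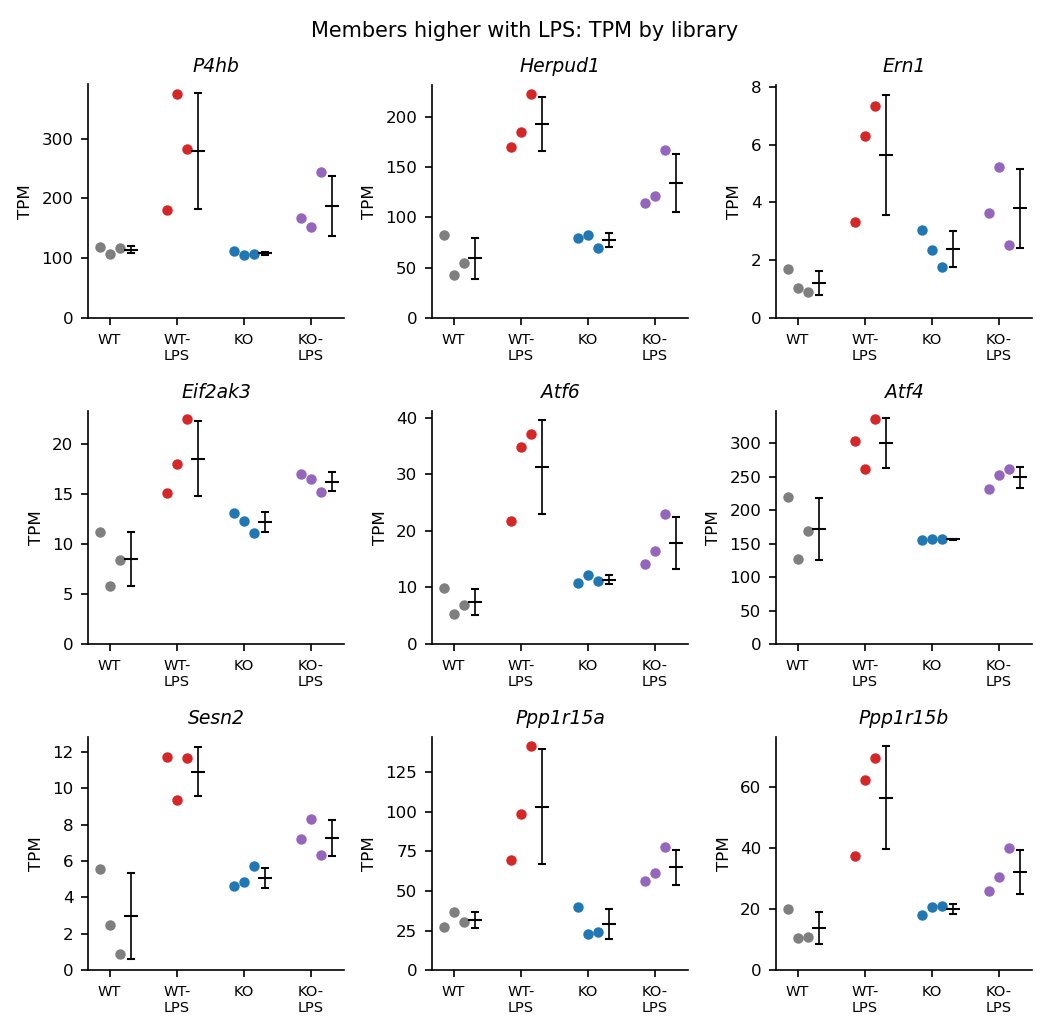
TPM (y axis, from 0) in each library (points) of the 9 members that rose with LPS in wild type and over both genotypes, by group (x axis; KO stands for CPEB1-KO), with the mean and SD of 3 libraries in black. For Atf6 the WT-LPS libraries lie at 21.7 to 37.1 TPM, above the 5.36 to 9.96 TPM of WT and, in 2 of 3 cases, above the 14.2 to 23.0 TPM of CPEB1-KO-LPS.

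Nupr1, a stress-induced nuclear protein and a target of ATF4, was the member with the largest difference between the genotypes' LPS responses. It was at 61.3, 70.9 and 57.4 TPM in WT and at 58.2, 48.1 and 51.8 TPM in WT-LPS. Without LPS the knockout was at 36.6, 39.6 and 39.8 TPM, and the CPEB1-KO-LPS libraries were at 66.7, 88.2 and 86.6 TPM. The CPEB1-KO libraries were below all others and the CPEB1-KO-LPS libraries above all but WT replicate 2, which lay between the first of them and the other 2. LPS raised Nupr1 in the knockout by 1.15 ± 0.25 (adjusted p = 0.0162), and wild type was at -0.64 ± 0.25 (adjusted p = 0.0752). The difference of the responses was 1.79 ± 0.36 (unadjusted p = 0.000222, adjusted p = 0.195). It passed in DESeq2 (1.74, adjusted p = 0.00689) and in edgeR without WT replicate 1 (1.89, adjusted p = 0.0246), and in no other alternative run (adjusted p of 0.104 to 0.486). CPEB1-KO against WT was at -1.07 ± 0.26 (adjusted p = 0.144), and passed with DESeq2 (adjusted p = 0.0112) and without WT replicate 1 (-1.18, adjusted p = 0.0271). The rise in the knockout was not called without any 1 of the CPEB1-KO libraries or without CPEB1-KO-LPS replicate 2 or 3 (adjusted p of 0.0506 to 0.084), and it was 0.87 without the 3 libraries that stand apart (adjusted p = 0.115).

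The remaining targets did not pass with LPS in either genotype. Asns, the asparagine synthetase, varied widely within WT and WT-LPS. Within WT it was at 65.2, 10.8 and 22.0 TPM and within WT-LPS at 102, 36.9 and 41.2 TPM, whereas CPEB1-KO stayed at 56.9, 62.1 and 67.3 TPM and CPEB1-KO-LPS was at 78.8, 76.8 and 37.3 TPM. The neuron marker mean was also highest within WT in replicate 1 (8.48, against 7.01 and 7.44), within WT-LPS in replicate 1 (8.96, against 7.73 and 8.05), and lowest within CPEB1-KO-LPS in replicate 3 (7.87, against 8.68 and 8.74). Asns passed in no comparison of the main fit, and in none of a fit with that mean as a covariate. The covariate fit therefore cannot show the part of the neuron mean in the Asns values, which was not tested otherwise. Without WT replicate 1, the WT library with the highest level, Asns passed in WT-LPS against WT (1.45, adjusted p = 0.0223, against 0.59 ± 0.47 and adjusted p = 0.360 with it). Chac1, which degrades glutathione, was likewise highest in replicate 1 of WT (8.34, 0.73 and 2.55 TPM) and of WT-LPS (6.59, 2.76 and 4.01 TPM) and lowest in replicate 3 of CPEB1-KO-LPS (7.33, 6.74 and 2.72 TPM) (-0.12 ± 0.56 in wild type, adjusted p = 0.891). Trib3, a pseudokinase that restrains ATF4, was the lowest member, at 0.27 to 3.55 TPM and 2 to 41 counts (1.33 ± 0.55 in the knockout, adjusted p = 0.186). Of the 4 members with a C/EBP-ATF element, Herpud1 thus rose with LPS in wild type, Nupr1 rose in the knockout, and Asns and Chac1 did not pass in either.

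**Figure D3:**
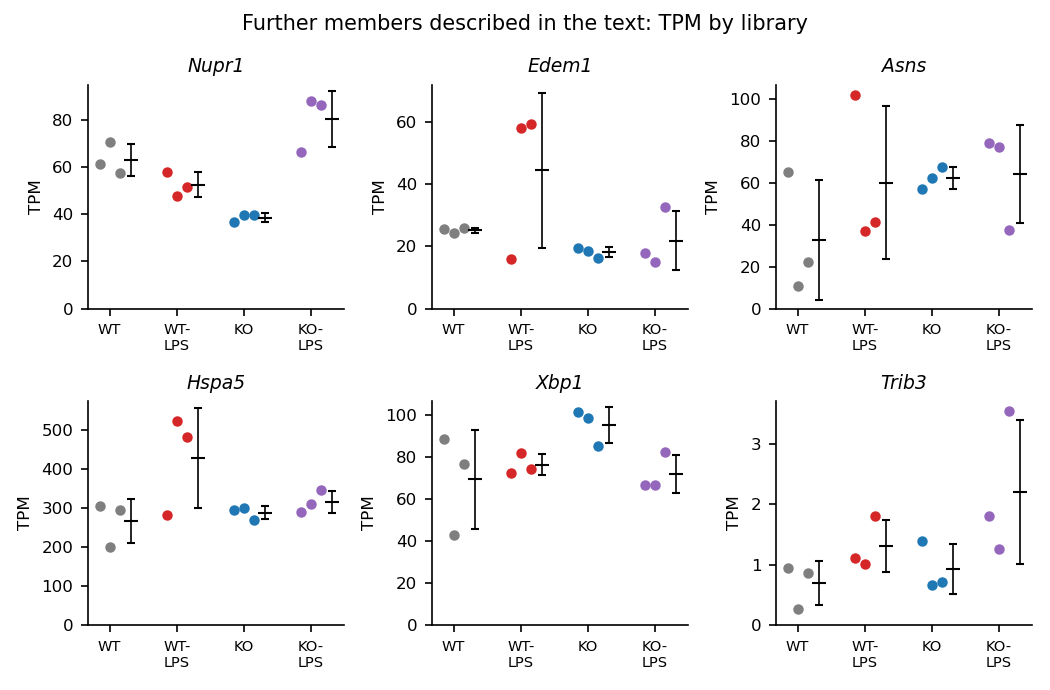
TPM (y axis, from 0) by library and group (KO stands for CPEB1-KO) of 6 further members, with the mean and SD of 3 libraries in black. Nupr1 lies at 36.6 to 39.8 TPM in CPEB1-KO and 66.7 to 88.2 TPM in CPEB1-KO-LPS, and in Edem1, Hspa5 and Asns replicate 1 of WT-LPS is far from the other 2.

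Of the 15 ER chaperones and folding helpers 1 rose and 5 fell in wild type, and 9 did not pass. That is 40.0% called, against 27.4% of all genes (12.4% rose and 14.9% fell). In the knockout 0 of 15 passed, against 6.22% of all genes. With an unadjusted p under 0.05 the shares were 40.0% and 20.0%, near the 40.7% and 20.5% of all genes. Creld2, a secreted ER-stress-inducible protein with disulphide isomerase activity, was at 43.9, 30.2 and 73.9 TPM in WT and at 21.4, 24.3 and 24.8 TPM in WT-LPS, without overlap. Its CPEB1-KO values lay at 44.3, 36.7 and 29.7 TPM, and the CPEB1-KO-LPS libraries were at 35.0, 35.6 and 28.4 TPM, which overlapped. On the log2 scale the difference was -1.39 ± 0.27 in wild type (adjusted p = 0.00305), -0.13 ± 0.27 in the knockout (adjusted p = 0.835) and -0.76 ± 0.19 over both (adjusted p = 0.0091). The call over both genotypes was lost without the 3 libraries that stand apart (-0.63, adjusted p = 0.0545) and with limma on TPM (-0.55, adjusted p = 0.0565). The difference between the 2 responses was 1.26 ± 0.38 and did not pass (adjusted p = 0.203).

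Pdia4, a disulphide isomerase of the ER lumen, was at 43.0, 30.0 and 46.6 TPM in WT and at 17.2, 29.2 and 22.8 TPM in WT-LPS. Knockout mice without LPS were at 43.9, 37.1 and 34.6 TPM, and the CPEB1-KO-LPS libraries were at 24.3, 24.7 and 19.6 TPM. It was the 1 member lower in every LPS library than in every library without LPS. It fell by 1.11 ± 0.23 in wild type (adjusted p = 0.00463) and by 0.91 ± 0.16 over both genotypes (adjusted p = 0.00133), and the knockout alone was at -0.72 ± 0.23 (adjusted p = 0.0861).

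Calr, the calcium-binding lectin chaperone calreticulin, had the highest mean level of the module. It was at 633, 375 and 465 TPM in WT and at 327, 440.3 and 365 TPM in WT-LPS. In CPEB1-KO the level was at 510.1, 484 and 463 TPM and in CPEB1-KO-LPS at 337, 331 and 306 TPM. The wild-type groups overlapped and the knockout groups did not. Its log2 difference was -0.69 ± 0.23 in wild type (adjusted p = 0.0367), -0.54 ± 0.23 in the knockout (adjusted p = 0.194) and -0.62 ± 0.16 over both (adjusted p = 0.0114). The wild-type call was lost in 10 of 12 fits without 1 library (adjusted p up to 0.134), without the 3 libraries that stand apart (-0.51, adjusted p = 0.135) and with limma on TPM (adjusted p = 0.221), and the call over both genotypes held in every alternative run.

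Pdia6, another disulphide isomerase, was at 161, 105 and 149.8 TPM in WT and at 76.4, 127 and 99.9 TPM in WT-LPS. In CPEB1-KO it was at 128, 121 and 117 TPM and in CPEB1-KO-LPS at 95.9, 89.0 and 93.2 TPM. The log2 difference was -0.77 ± 0.23 in wild type (adjusted p = 0.0257), -0.35 ± 0.23 in the knockout (adjusted p = 0.432) and -0.56 ± 0.16 over both (adjusted p = 0.0207). Sdf2l1, a partner of ER-resident DnaJ proteins, was at 62.1, 45.3 and 58.9 TPM in WT and at 22.4, 55.3 and 29.7 TPM in WT-LPS. The CPEB1-KO libraries were at 56.5, 49.5 and 42.1 TPM, and the CPEB1-KO-LPS libraries were at 37.6, 38.2 and 32.8 TPM. Its log2 difference was -0.94 ± 0.31 in wild type (adjusted p = 0.0398), -0.40 ± 0.31 in the knockout (adjusted p = 0.507) and -0.67 ± 0.22 over both (adjusted p = 0.0345). For both genes WT-LPS replicate 2 lay inside the WT range. Without WT-LPS replicate 1 their wild-type calls were lost (-0.52, adjusted p = 0.109, and -0.61, adjusted p = 0.137), and so were those of 4 further such fits for Pdia6 and 8 for Sdf2l1. Without the 3 libraries that stand apart the wild-type values were -0.52 for Pdia6 (adjusted p = 0.0958) and -0.61 for Sdf2l1 (adjusted p = 0.131), and Sdf2l1 over both genotypes was at -0.49 (adjusted p = 0.108). Over both genotypes the call was lost in 4 of 12 such fits for Pdia6 (adjusted p up to 0.071) and in 9 for Sdf2l1 (adjusted p up to 0.0872).

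Marker lists of several cell types had lower means with LPS in wild type, beside these falls. Those of plasma cells and of choroid plexus and ependyma, which are secretory, are given first. The mean log2(TPM + 1) of 7 plasma cell markers was 1.58 to 1.99 without LPS and 0.751 to 0.962 with LPS in wild type, and 1.35 to 2.49 in CPEB1-KO against 1.17 to 1.25 in CPEB1-KO-LPS. Their summed level was 21.8 to 27.6 TPM in WT and 6.07 to 8.70 TPM in WT-LPS. In that sum Tnfrsf17 went from a mean of 12.1 TPM to 0.08 TPM. Mzb1, a chaperone of immunoglobulin assembly, was at 17, 8 and 10 counts in WT and at 0 counts in all 3 WT-LPS libraries. The markers did not all fall, as Igj (means of 1.55 and 1.75 TPM) and Sdc1 (2.58 and 2.68 TPM) were not lower in WT-LPS. The mean of 7 choroid plexus and ependyma markers was 5.13 to 5.93 without LPS and 3.66 to 4.22 with LPS in wild type, and 5.77 to 5.83 in CPEB1-KO against 3.83 to 4.41 in CPEB1-KO-LPS. Lists of other cells were lower in WT-LPS too, namely erythroid (11.5 to 12.2 against 8.88 to 9.69), B cells, T and NK cells, border macrophages and microglia. Monocyte and endothelial lists were higher, as given above, and those of neurons, astrocytes, oligodendrocytes and neutrophils overlapped. The part of these lists in the chaperone values was not tested.

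P4hb, the beta subunit of prolyl 4-hydroxylase and a protein disulphide isomerase, was the chaperone that rose. It was at 118, 107 and 118 TPM in WT and at 180.5, 375 and 282 TPM in WT-LPS. Without LPS the knockout was at 111, 105 and 108 TPM, and the CPEB1-KO-LPS libraries were at 166, 151 and 245 TPM. All 6 libraries without LPS lay within 105 to 118 TPM, and all 6 LPS libraries were above them. On the log2 scale the difference was 0.95 ± 0.32 in wild type (adjusted p = 0.0425), 0.88 ± 0.32 in the knockout (adjusted p = 0.135) and 0.92 ± 0.23 over both (adjusted p = 0.00912). The highest LPS libraries were WT-LPS replicates 2 and 3 and CPEB1-KO-LPS replicate 3. The microglia marker mean of these was 8.63, 8.03 and 8.16, against 6.64, 6.94 and 6.11 in the other 3 LPS libraries. Its part in the P4hb values was not tested. The wild-type call was lost without WT-LPS replicate 2 (0.59, adjusted p = 0.192) and in 7 further fits without 1 library.

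**Figure D4:**
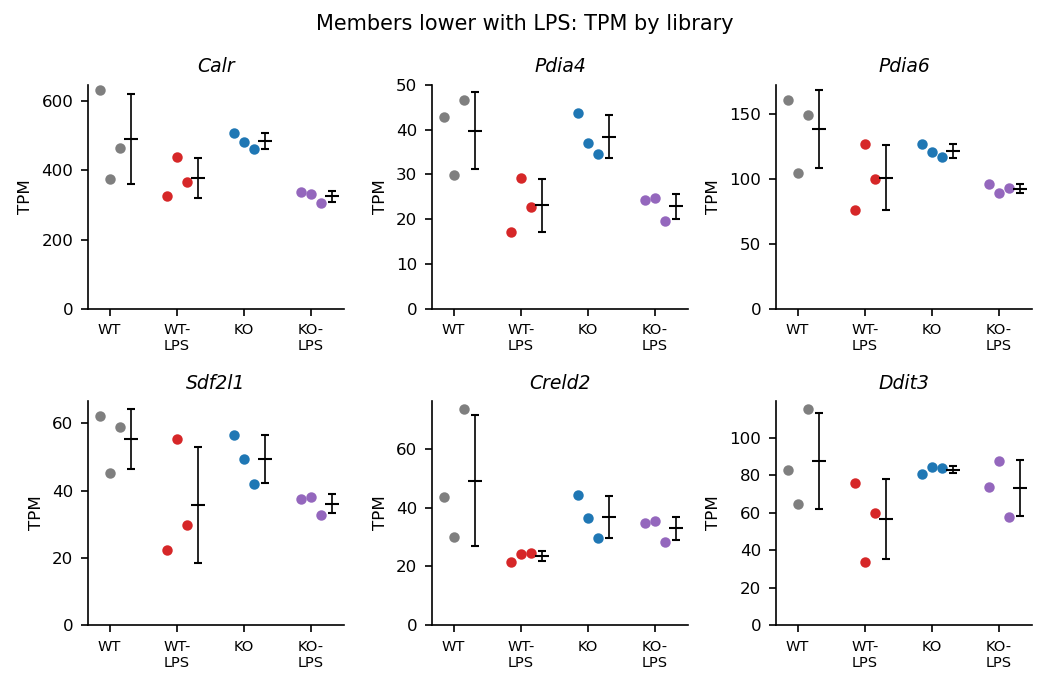
TPM (y axis, from 0) by library and group (KO stands for CPEB1-KO) of the 6 members that fell with LPS in wild type and over both genotypes, with the mean and SD of 3 libraries in black. Pdia4 lies at 17.2 to 29.2 TPM in the LPS libraries and 30.0 to 46.6 TPM in the others, while in Calr, Pdia6, Sdf2l1 and Ddit3 the WT and WT-LPS libraries overlap.

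Hspa5, which encodes BiP, the main Hsp70 chaperone of the ER and the usual readout of ER stress, did not pass. It was at 305, 201 and 295 TPM in WT and at 284, 523 and 482 TPM in WT-LPS. Its CPEB1-KO values lay at 294, 302 and 271 TPM, and the CPEB1-KO-LPS libraries were at 291, 311 and 346 TPM. WT-LPS replicate 1 lay within WT and the other 2 above it. Its log2 difference was 0.37 ± 0.27 in wild type (adjusted p = 0.331), 0.19 ± 0.27 in the knockout (adjusted p = 0.754) and 0.28 ± 0.19 over both (adjusted p = 0.300). Without the 3 libraries that stand apart, WT-LPS replicate 1 among them, the wild-type value was 0.67 and passed (adjusted p = 0.0466).

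The other 8 chaperones that did not pass had log2 differences of -0.34 to 0.32 in wild type. They were the Hsp90 chaperone Hsp90b1 (-0.34 ± 0.27, adjusted p = 0.359), the lectin chaperone Canx (-0.18 ± 0.23), its partner isomerase Pdia3 (-0.05 ± 0.29), the BiP co-chaperones Dnajb9 (0.32 ± 0.16), Dnajb11 (0.26 ± 0.27) and Dnajc3 (0.20 ± 0.26), the secreted factor Manf (0.12 ± 0.29) and the nucleotide exchange factor Hyou1 (-0.02 ± 0.19). Their adjusted p values began at 0.158, for Dnajb9. Canx, Pdia3, Hyou1, Xbp1 and Chac1 had a higher mean TPM in WT-LPS than in WT beside a log2 difference below 0, so their sign rests on the scale. Dnajb9 passed with limma on TPM (0.66, adjusted p = 0.0349). Of the 8 members with an ERSE match, Calr, Pdia6 and Creld2 fell in wild type, and Hspa5, Hsp90b1, Canx, Dnajc3 and Syvn1 did not pass. Chaperones held 74.2% to 75.9% of the summed TPM of the module in WT against 62.3% to 72.9% with LPS, and 73.2% to 74.2% in CPEB1-KO and 64.7% to 67.6% in CPEB1-KO-LPS. The chaperone sum itself overlapped between LPS and no LPS in both genotypes. It was 2408, 1632 and 2046 TPM in WT and 1773, 2794 and 2306 TPM in WT-LPS. In CPEB1-KO it was 2079, 2053 and 1910 TPM, and in CPEB1-KO-LPS 1745, 1770 and 2052 TPM.

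ER-associated degradation returns misfolded proteins to the cytosol for the proteasome. Of its 4 genes in the module, Herpud1 rose in wild type, where 12.4% of all genes rose. It encodes an organiser of the degradation complex and was at 82.1, 42.3 and 54.2 TPM in WT and at 170.5, 185 and 223 TPM in WT-LPS. Knockout mice without LPS were at 79.9, 82.9 and 69.9 TPM, and the CPEB1-KO-LPS libraries were at 114, 121 and 167 TPM. All LPS libraries were above all libraries without LPS. It rose by 1.37 ± 0.25 in wild type (adjusted p = 0.00223) and by 1.12 ± 0.18 over both genotypes (adjusted p = 0.000549). The knockout alone, at 0.87 ± 0.25, lay just outside the threshold (adjusted p = 0.0564) and passed with DESeq2 (adjusted p = 0.0246).

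Edem1, a lectin that extracts misfolded glycoproteins, was at 25.6, 24.3 and 25.8 TPM in WT and at 15.8, 58.2 and 59.5 TPM in WT-LPS. In CPEB1-KO the level was at 19.4, 18.5 and 16.3 TPM and in CPEB1-KO-LPS at 17.8, 15.1 and 32.8 TPM. WT-LPS replicate 1 was below all WT libraries and the other 2 above them. The wild-type difference was 0.48 ± 0.45 (adjusted p = 0.449), and without the 3 libraries that stand apart it was 0.95 (adjusted p = 0.00469). The Edem1 levels and the microglia marker mean named for P4hb were high in the same 3 LPS libraries, and their relation was not tested. Sel1l and Syvn1, the adaptor and the ubiquitin ligase of the main degradation complex, did not pass in wild type (0.28 ± 0.17, adjusted p = 0.237, and -0.53 ± 0.28, adjusted p = 0.172). Sel1l passed with limma on TPM (0.62, adjusted p = 0.0463). In Syvn1 WT replicate 3 was at 68.7 TPM, against 20.3 to 44.3 TPM in the other 11 libraries, and it overlaps Mrpl49.

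The knockout was compared with wild type to ask how these transcripts differ between the labelled genotypes. Among the 33 members 0 passed without LPS, 0 with LPS and 0 over both treatments, where 0.0327%, 0.00654% and 0.124% of all genes passed in edgeR. Members with an unadjusted p under 0.05 numbered 3, 3 and 4 (18.6%, 10.8% and 13.4% of all genes). DESeq2 called 1, 0 and 0 members, the first being Nupr1. Without LPS the 3 were Creld2 (-0.72 ± 0.27, unadjusted p = 0.0183, adjusted p = 0.205), Atf5 (-0.66 ± 0.21, unadjusted p = 0.00691, adjusted p = 0.179) and Nupr1. With LPS they were Nupr1 (0.72 ± 0.25, unadjusted p = 0.0126, adjusted p = 0.422), Atf6 (-0.71 ± 0.28, unadjusted p = 0.0242, adjusted p = 0.432) and Ppp1r15b (-0.72 ± 0.30, unadjusted p = 0.0292, adjusted p = 0.438). Without LPS the genotypes also differed in marker means. The microglia mean was 9.17 to 9.37 in WT and 8.04 to 8.58 in CPEB1-KO. Every neuron mean of WT, at 7.01 to 8.48, lay below every neuron mean of CPEB1-KO. With the neuron mean as a covariate 0 members passed in CPEB1-KO against WT, as in the main fit. That fit therefore cannot show the part of these markers in the genotype values, which was not tested otherwise.

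The LPS responses of the genotypes were compared by the interaction, the response in the knockout minus that in wild type. Again 0 of 33 members passed, against 0.00654% of all genes, and 7 members had an unadjusted p under 0.05 (15.5% of all genes). DESeq2 called 1, Nupr1. Of the 7, Ern1 (-1.19 ± 0.53, adjusted p = 0.306), Atf6 (-1.03 ± 0.40, adjusted p = 0.261) and Ppp1r15b (-0.95 ± 0.42, adjusted p = 0.302) had values below 0. Nupr1, Creld2, Ddit3 (0.83 ± 0.35, adjusted p = 0.288) and Atf5 (0.65 ± 0.29, adjusted p = 0.307) had values above 0. That 15 members passed in wild type and 2 in the knockout therefore does not show a weaker response of the module in the knockout. With limma on log2(TPM + 1) the median gene of this contrast lay at -0.30, and 0 members passed.

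Leaving out the 3 libraries that stand apart changed the genotype comparisons. With LPS, 9 members were then lower in the knockout (8.84% of all genes were lower), namely Hspa5, Pdia3, P4hb, Dnajc3, Herpud1, Edem1, Atf6, Ppp1r15a and Ppp1r15b, with log2 differences of -0.84 for Dnajc3 to -2.01 for Edem1. Over both treatments 7 were lower (9.59% of all genes), namely Pdia3, P4hb, Dnajb11, Dnajc3, Edem1, Atf6 and Ppp1r15a. The LPS libraries that then remained had microglia marker means of 8.63 and 8.03 in wild type, against 6.94 and 6.11 in the knockout, so that genotype and marker level cannot be told apart in them. This setting was chosen after seeing the data, and it leaves 2 libraries in 3 of the groups.

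**Figure D5:**
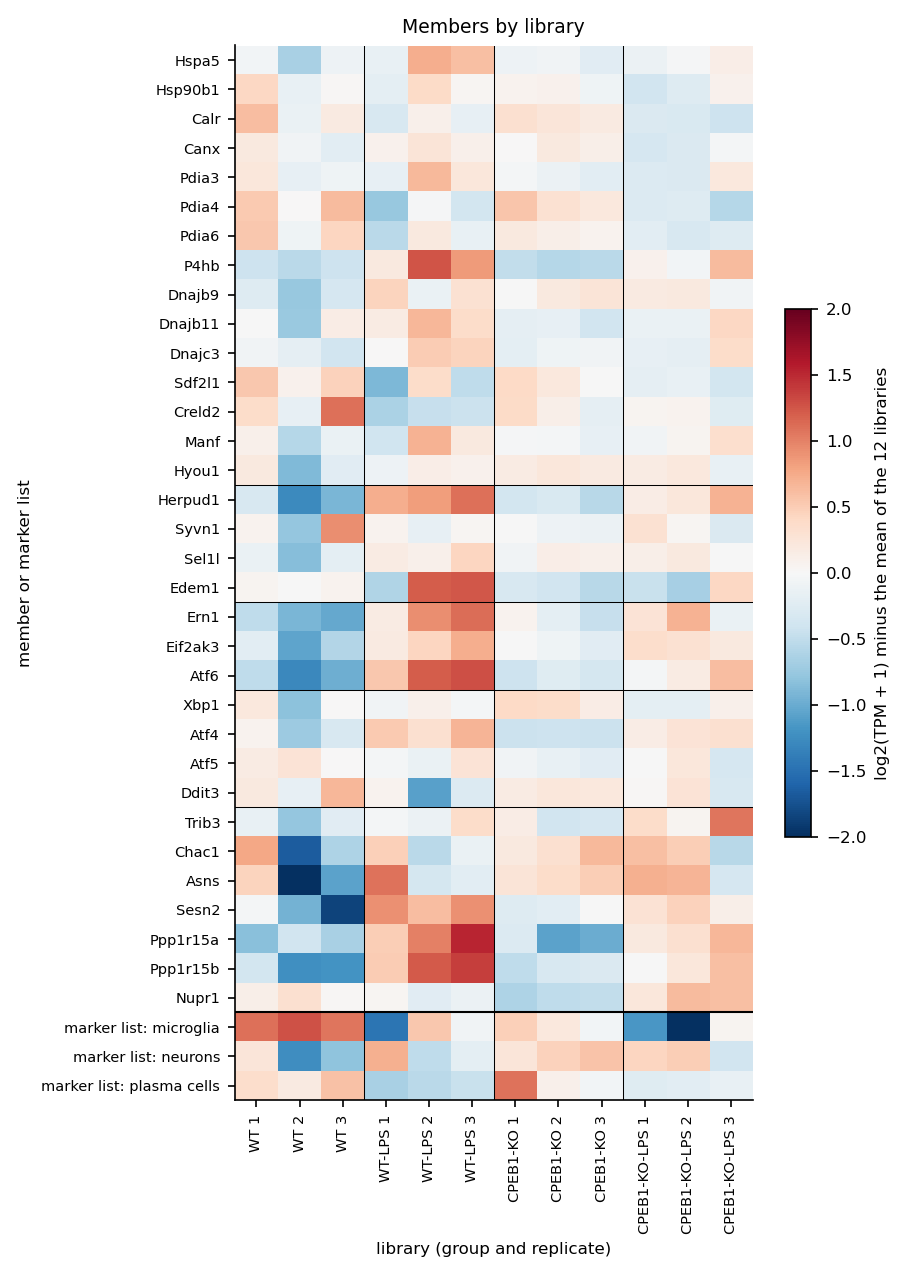
Log2(TPM + 1) of the 33 members (rows, in the order of their roles) and the mean of 3 marker lists in each of the 12 libraries (columns), minus the row's mean over the libraries. Red is above and blue below that mean, on a scale of -2 to 2. The sensors are red in WT-LPS, the microglia row is blue in WT-LPS replicate 1 and CPEB1-KO-LPS replicates 1 and 2, and Asns follows the neuron row within groups.

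Other genes of these pathways were read from 8 lists with 168 genes beside the members, of which 164 were tested. In wild type 33 rose and 20 fell, in the knockout 11 rose and 1 fell, and over both genotypes 47 rose and 15 fell. The share that passed was 32.3% in wild type, 7.32% in the knockout and 37.8% over both, against 27.4%, 6.22% and 29.4% of all genes, so that the first and second were near the background. In the genotype comparisons and the interaction 0 passed in edgeR, and the genes with an unadjusted p under 0.05 numbered 26 without LPS, 11 with LPS, 13 over both treatments and 18 in the interaction. Those are 15.9%, 6.71%, 7.93% and 11.0% of these genes, each below the share of all genes (18.6%, 10.8%, 13.4% and 15.5%). The median log2 difference in wild type was 0.23 over these genes and -0.03 over all genes.

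Stress transcription factors and signalling targets had 9 genes higher and 3 lower of 17 tested in wild type (70.6% called, against 27.4% of all genes), and 5 higher and 0 lower in the knockout (29.4%, against 6.22%). Cebpb and Cebpd, C/EBP factors of inflammation, rose in both genotypes. Cebpb went from 42.2 ± 8.37 to 280.3 ± 114 TPM (SD, n = 3) in wild type (2.35 ± 0.51, SE, adjusted p = 0.00516), and at 31.6 ± 11.3 TPM and 227 ± 141 TPM in the knockout groups (2.96 ± 0.52, adjusted p = 0.00428). Ddit4, an inhibitor of mTORC1, rose by 2.11 ± 0.23 in wild type and by 1.52 ± 0.23 in the knockout. Cebpg, a partner of ATF4, fell in wild type (-1.78 ± 0.29, adjusted p = 0.00114).

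Amino acid genes known as ATF4 targets had 8 of 29 higher and 2 lower in wild type (34.5% called) and 3 higher in the knockout (10.3%). Slc7a11, the cystine transporter, rose by 2.86 ± 0.40 (adjusted p = 0.000536) in wild type and by 1.78 ± 0.38 (adjusted p = 0.0145) in the knockout. Its partner chain Slc3a2 rose by 1.14 ± 0.24 and 1.07 ± 0.24. The threonyl-tRNA synthetase Tars rose by 0.63 ± 0.19 and 0.94 ± 0.19, whereas the cysteinyl-tRNA synthetase Cars fell in wild type (-1.36 ± 0.29, adjusted p = 0.00455). In the core of eIF2, its kinases and eIF2B, 5 of 16 rose and 1 fell in wild type, 9 rose and 1 fell over both genotypes, and 0 passed in the knockout. The share called was 37.5% in wild type and 62.5% over both, where all genes had 27.4% and 29.4%. The eIF2 subunit Eif2s2 rose by 0.70 ± 0.14 over both genotypes (adjusted p = 0.00301), and Nck1, an adaptor, fell by 0.74 ± 0.18 (adjusted p = 0.00763).

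Oxidative folding and lectin cycle genes had 2 of 26 higher and 5 lower in wild type and 1 lower in the knockout. At 26.9% and 3.85% called, they did not exceed the background of 27.4% and 6.22%. Cnpy2, an ER-resident saposin-like protein, fell in wild type (-1.27 ± 0.18, adjusted p = 0.000536) and in the knockout (-0.64 ± 0.18, adjusted p = 0.0478). The prolyl isomerase Fkbp2 went from 753 ± 220 TPM in WT to 277 ± 53.0 TPM in WT-LPS (-1.80 ± 0.23, adjusted p = 0.000347) and was at 468 ± 6.11 and 337 ± 4.79 TPM in the knockout groups (-0.39 ± 0.23, adjusted p = 0.372). Translocation and N-glycosylation genes were mixed, with 3 of 26 higher and 4 lower in wild type (again 26.9%), for example the translocon-associated Ssr3 (1.23 ± 0.25, adjusted p = 0.0041) and the oligosaccharyltransferase subunit Ost4 (-0.95 ± 0.28, adjusted p = 0.024).

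Further degradation genes had 3 of 22 higher and 2 lower in wild type (22.7%, below the background) and 2 higher in the knockout (9.09%). The latter were Ufd1l (0.66 ± 0.17, adjusted p = 0.0382), a cofactor of the segregase VCP, and Vimp (0.81 ± 0.22, adjusted p = 0.0446), which tethers VCP to the ER, and both also rose in wild type (0.73 ± 0.17 and 0.65 ± 0.22). Other bZIP factors, proteases and regulators of the ER had 3 of 19 tested higher and 0 lower in wild type (15.8%, below the background) and 1 higher in the knockout (5.26%), the phosphatase Ptpn1 (0.97 ± 0.32 and 1.16 ± 0.32). Candidates for decay by IRE1 had 3 of 10 lower and 0 higher in wild type (30.0% called, near the 27.4% of all genes, of which 14.9% fell), namely Pmp22 (-1.20 ± 0.24, adjusted p = 0.0037), Ergic3 (-0.69 ± 0.19, adjusted p = 0.0175) and Bloc1s1 (-0.74 ± 0.22, adjusted p = 0.0265), and 0 of 10 in the knockout, where Pmp22 was at -0.71 ± 0.24 (adjusted p = 0.105).

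By mean level over the 12 libraries the module spanned from Calr at 420 TPM, Hspa5 at 325 TPM and Hsp90b1 at 291 TPM down to Chac1 at 5.04 TPM, Ern1 at 3.26 TPM and Trib3 at 1.29 TPM. The coefficient of variation over the libraries, which includes the differences between groups, was lowest in Canx (13.3%), Atf5 (14.4%) and Hsp90b1 (16.8%). It was highest in Trib3 (65.6%), Ern1 (63.0%), Ppp1r15a (62.5%) and Ppp1r15b (61.9%).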

How the data were processed

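The authors deposited expected counts per gene, not normalized between libraries, and TPM, scaled within each library, for 12 libraries. Trimming with cutadapt, quantification with RSEM and the genome build mm10 are listed per the submitters' processing notes, and no source used here gives their versions or the counting strand. In 27 rows a gene name that had become a date was restored. Rounded expected counts went into edgeR 4.0.16 (R 4.3.3): filterByExpr (minimum count 10), TMM scaling, and a quasi-likelihood model with 4 group means on all 12 libraries (8 residual degrees of freedom, common biological coefficient of variation 0.282). Tests were two-sided, adjusted by Benjamini-Hochberg over 15295 genes. SE is the absolute log2 difference divided by the square root of F. The procedure was also run on simulated counts, with the same dispersion for every gene and no differences in cell content. That run therefore says nothing about how such differences act in these libraries. DESeq2 1.42.0 and limma 3.58.1 on log2(TPM + pseudocount) were alternatives, beside other size factors, no filter, a replicate block, 2 groups only and leaving out libraries.

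The members, the gene lists and the tests were chosen with earlier results of these data known. The text names all members, gives values per library for those past the threshold and for Hspa5, Xbp1, Atf4 and Ddit3, and takes from each pathway list up to 4 called genes with the smallest p in wild type and up to 4 over both genotypes. Library values of Cpeb1, Asns, Edem1 and, in part, Chac1 were added after seeing them. Protein sequences were not analysed here. Libraries held 5.02 M to 13.5 M counts, and a difference that did not pass is not shown to be absent.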

Additional observations from a re-analysis of the deposited data

How the results depend on the processing

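In WT-LPS against WT, where 15 members were called, leaving out 1 library gave 9 to 15 (9 without WT replicate 3 and 9 without WT-LPS replicate 3), a fit of only WT and WT-LPS 8, and a replicate block 12. In CPEB1-KO-LPS against CPEB1-KO, where 2 were called, leaving out 1 library gave 0 to 4, RLE size factors 1, DESeq2 4, the replicate block 1, the fit without the 3 libraries that stand apart 1, and the neuron marker mean as a covariate 4 (the last 2 chosen after seeing the data). Over both genotypes leaving out 1 library gave 12 to 14 of 15. In CPEB1-KO against WT DESeq2 called 1 member and leaving out 1 library 0 to 2 (without WT replicate 1, Nupr1 lower and Asns higher). With LPS and over both treatments leaving out 1 library gave 0, and leaving out the 3 libraries gave 9 and 7. In the interaction DESeq2 called 1 and leaving out 1 library gave 0 to 1. The replicate block called 15 over both genotypes and changed no other count. No pairing by replicate number was seen. Same-numbered libraries had correlations of -0.34 to 0.38 in their deviations from the group means, and 3 of 12 correlated best with their own number. Cell content differed within groups, so this check cannot show that no pairing exists. Of 657 values of called members under alternatives, 541 kept the call, 116 lost it and 0 changed sign; of 4095 values of the others, 47 passed. The cause of these changes was not tested. Fits with fewer libraries also have fewer degrees of freedom. The 3 libraries per group leave 8 residual degrees of freedom, and a missing call does not show that a difference is absent.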
